A study of Mus musculus with 9 samples.

Results

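The comparison of old mice given 3HB with untreated old mice was described here across all 113 genes that the authors listed for it, out of 489 distinct genes in both deposited tables. Kidney RNA came from 3 untreated old male ICR mice of 20 months and from 3 male ICR mice of the same age whose drinking water held 3HB-Na at 1 g/L since the age of 11 months. Male ICR mice of 2 months, untreated (3 young mice), were measured beside them and are given as values for the same genes. ICR is an outbred stock, so mice of one group also differed in genotype, and each library is 1 mouse. The methods name muscle as the tissue for sequencing, whereas the labels and the study's results name kidney.

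3HB (3-hydroxybutyrate) is a ketone body made by the liver from fatty acids and used as fuel by other organs, and it also acts on receptors and on histone-modifying enzymes. The largest groups among the genes listed for this comparison belong to 3 kinds of machinery. Chaperones fold new or damaged proteins, in the cytosol under the control of heat shock factor and in the endoplasmic reticulum under the control of the unfolded protein response. MHC class II and class I molecules show peptides to T cells, and interferon-gamma raises both, together with the immunoproteasome that cuts the peptides. Ribosomal proteins are the structural parts of the translation machinery, and their mRNAs are short and abundant.

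The values are normalized expression values with 2 decimals, in a unit the sources used here do not name (TPM or FPKM), and the total read count of each mouse is unknown. Over the 113 genes and 9 mice they ran from 0.17 to 15836, and none of the 1017 values was 0. Changes are given as the difference between group means of log2(value + 1) with its standard error (SE), a scale on which low genes appear to change less than they do. The genes had been called by the authors on this same contrast, so the differences are a description and no test was run on them. Groups of 3 and 3 mice would in any case give an exact permutation test (two-sided) no p under 0.1. Of 15 proximal tubule markers, only Lrp2, the endocytic receptor megalin, was in the table, and 0 of 11 skeletal muscle markers were in either table. Only called genes are listed, so these counts cannot tell which tissue was sequenced. Among the young mice, mouse 3 stood apart from the others in most of these genes, and young values are therefore given mouse by mouse. No batch, extraction day or sequencing run is given in the labels.

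Of the 113 genes, 43 were higher and 70 were lower with 3HB than in untreated old kidney. Untreated and 3HB-treated old mice had no overlapping values in 101 genes (89.4% of the table), namely in all 43 higher genes (38.1% of the table) and in 58 lower genes (51.3% of the table). Among the 376 genes that were listed for young against old only, the same 2 groups did not overlap in 44 (11.7%), with 28 higher (7.45%) and 16 lower (4.26%). The difference between these shares follows from how the table was made. Differences were moderate in size. The median absolute difference was 0.69 on the log2 scale, with a median SE of 0.16, and 13 genes were higher and 9 lower by at least 1. The higher genes had a median difference of 0.83 (range 0.40 to 2.61) and the lower genes of -0.56 (range -2.02 to -0.22).

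The spread between mice was described for each group. The SD of log2 values was smaller in the 3HB mice than in the old mice in 73 of 113 genes, with medians of 0.149 and 0.206, and the young mice had a median SD of 0.440. Calling on this contrast can favour genes with little spread in the old and 3HB mice, so these SDs may be partly set by the choice of genes. The calling test is not given, and whether the young mice entered it is unknown. Among the higher genes 38 were protein coding and 5 were pseudogenes or noncoding, and among the lower genes the numbers were 61 and 9. The longest annotated transcript had a median length of 4665 nt for the higher genes and 1671.5 nt for the lower genes.

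**Figure D1:**
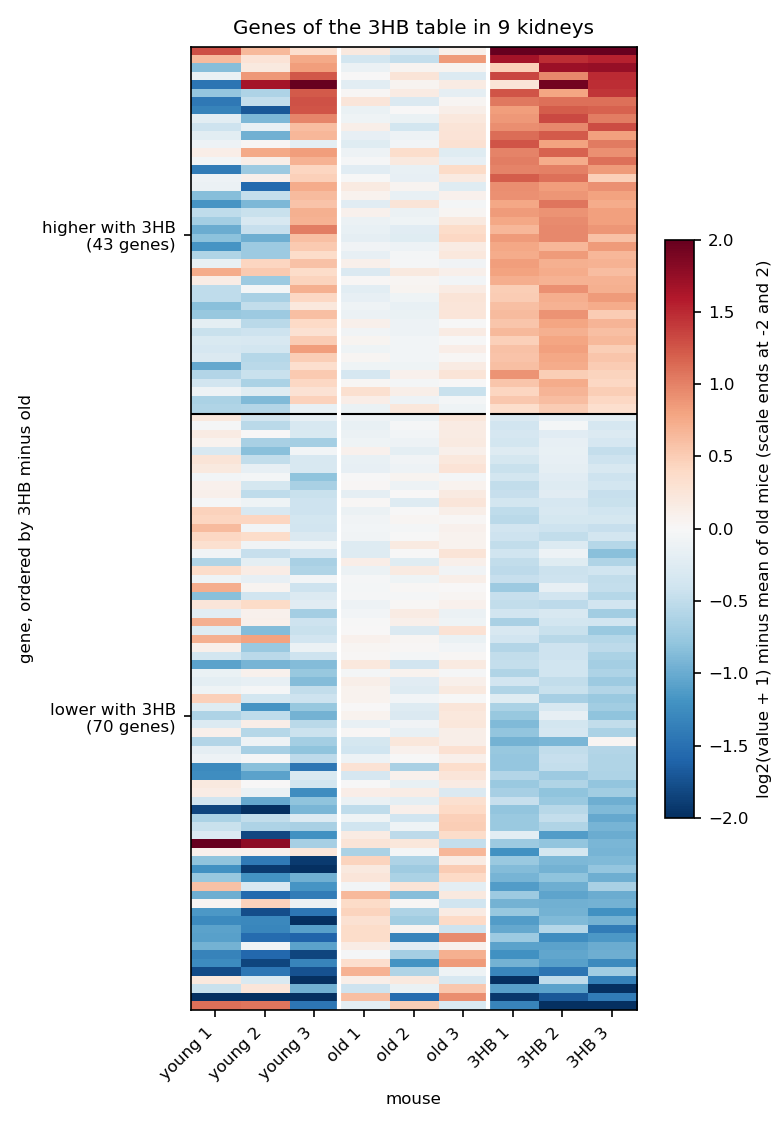
Colour shows log2(value + 1) of each of the 113 genes (rows, ordered by 3HB minus old) in each of the 9 mice (columns) minus the mean of the old mice, on a scale that ends at -2 and 2. The 43 genes above the black line are higher and the 70 below it are lower in the 3HB mice, and young mouse 3 shares the colours of the 3HB mice in most rows while young mice 1 and 2 do not share them in most of the upper rows.

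Cytosolic heat shock genes stood among the largest differences on the higher side. Of 35 genes on the list of cytosolic chaperones and their partners, 4 were in the table, all higher without overlap, with a median difference of 1.07. Hsph1 (ENSMUSG00000029657, chr5:149614287-149636376) encodes HSP110, which exchanges the nucleotide of HSP70. It was at 48.1, 52.8 and 41.3 in the old mice and at 114, 82.2 and 129 in the 3HB mice, a difference of 1.16 (SE 0.22) on the log2 scale and a 2.29-fold ratio of means. Chordc1, a co-chaperone of HSP90, was at 9.95, 11 and 11.9 in old and at 20.3, 26.6 and 25.9 in 3HB mice (difference 1.07, SE 0.14). Each 3HB mouse thus stood well above each old mouse in both genes. Hspa4l, another member of the HSP110 family, had low values of 2.72, 2.59 and 3.57 in old and 6.18, 8.81 and 6.99 in 3HB mice. Hsp90aa1, the stress-inducible cytosolic HSP90, was at 108, 98.7 and 80.5 in old and at 181, 169.7 and 181 in 3HB mice, a difference of 0.89 (SE 0.13).

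These genes belong to the classic targets of heat shock factor, which binds inverted repeats of GAA. Promoters from RefSeq (build GRCm38.p6, 250 bases before to 50 after the start) were found for 64 of the 113 genes. The core of the heat shock element was searched on both strands as GAANNTTC and as TTCNNGAA, which may overlap each other. Among the 5 chaperone genes with a promoter, Hsph1 and Chordc1 held it in both arrangements and the others in neither. Of all 32851 promoters, 7.86% held the first arrangement, 8.52% the second and 15.1% either of them. The first was found in 5 of the 26 higher genes with a promoter and in 3 of the 38 lower ones, and the second in 5 and 4. Outside the chaperones, the higher gene Nploc4 and the lower gene Rps18 also held both. In Hsph1 the second arrangement started 33 bases before the start site. It is shown in capitals in the 100 bases before the start (chr5:149636337-149636436, minus strand), since this is the gene with the largest difference among the chaperones.
Hsph1: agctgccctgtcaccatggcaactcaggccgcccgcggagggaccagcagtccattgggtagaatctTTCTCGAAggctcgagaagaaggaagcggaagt
In Chordc1 the site GAACGTTC began 4 bases before the start and ran across it.

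A few genes for the folding machinery of the endoplasmic reticulum were higher as well. Of 53 listed genes for folding and degradation in the endoplasmic reticulum, 3 were in the table, all higher without overlap, with a median difference of 0.71. Hyou1, the HSP110-like chaperone of this compartment, was at 21.4, 24.9 and 19.1 in old and at 45.1, 37 and 47.4 in 3HB mice (difference 0.96, SE 0.15). Hsp90b1 (ENSMUSG00000020048, chr10:86690209-86705509), which encodes GRP94, was at 149, 151 and 140.3 in old and at 243, 238 and 239 in 3HB mice, a difference of 0.71 with an SE of 0.03. The spread within both groups of Hsp90b1 was thus very small against the distance between them. Dnajc3, a co-chaperone that also inhibits the kinase PERK, was at 21.4, 20.03 and 21.1 in old and at 31.3, 36.2 and 31.1 in 3HB mice (difference 0.63, SE 0.07). Other listed genes, among them Hspa5 and Ddit3, were not among the called genes, and their values were not analysed here.

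Both chaperone genes of the endoplasmic reticulum that had a promoter, Hsp90b1 and Dnajc3, held the whole endoplasmic reticulum stress element. This element consists of CCAAT and CCACG separated by 9 bases, and it is bound by NF-Y and ATF6. It was present in 39 of 32851 promoters (0.119%), in 2 of the 26 higher genes with a promoter and in 0 of the 38 lower ones. The spacing was added to the search after the sites had been seen, whereas CCAAT alone occurred in 37.4% and CCACG alone in 32.8% of all promoters. Capitals mark both ends of each element in the bases before the start of Hsp90b1 (chr10:86705445-86705664, minus strand) and Dnajc3 (chr14:118937812-118937931, plus strand), shown because the whole element is rare among promoters.
Hsp90b1: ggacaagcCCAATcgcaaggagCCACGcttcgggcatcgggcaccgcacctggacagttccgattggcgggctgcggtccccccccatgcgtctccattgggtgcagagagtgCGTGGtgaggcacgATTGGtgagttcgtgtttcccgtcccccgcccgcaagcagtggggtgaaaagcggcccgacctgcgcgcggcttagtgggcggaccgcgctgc
Dnajc3: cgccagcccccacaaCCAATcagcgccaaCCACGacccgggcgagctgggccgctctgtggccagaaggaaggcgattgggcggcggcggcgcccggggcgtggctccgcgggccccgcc
The promoter of Hsp90b1 held the element once in each orientation, with first bases 212 and 107 bases before the start, and that of Dnajc3 held it once, 105 bases before the start.

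Higher genes linked to the p97 ATPase and the proteasome formed a further group of 4 without overlap, put together after their values were seen. Their common direction follows from this choice. The proteasome subunits Psmb8 and Psmb10, on an immune list, were lower (differences -0.90 and -0.54), as were the ubiquitin-linked genes Fbxo6, Ubd and Gm8325. p97 extracts ubiquitinated proteins for degradation. Nploc4, its cofactor for this task, was at 16.6, 15.3 and 14.7 in old and at 28.6, 25.9 and 25.8 in 3HB mice (difference 0.75, SE 0.07). Ubxn2a, another p97 adaptor, was at 12.3, 11.7 and 18.9 in old and at 25.9, 28 and 21.5 in 3HB mice. Vcp-rs, a processed pseudogene of p97 itself, was at 55.9, 47.9 and 56.5 in old and at 101, 98.8 and 93.7 in 3HB mice (difference 0.86, SE 0.08). Gm13835, a processed pseudogene that the deposited annotation matches to the proteasome subunit Psma3, had a difference of 1.05 (SE 0.18). Reads of the pseudogenes cannot be told apart from those of their near-identical parent genes, which were not in the table.

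**Figure D2:**
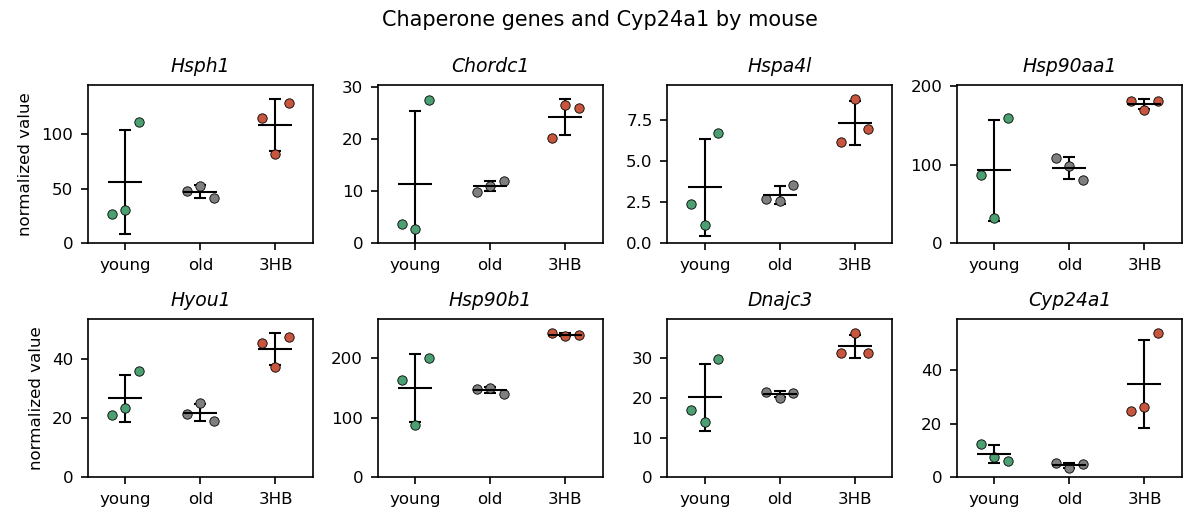
Points are the normalized values of single mice, horizontal lines the group means and error bars the SD (n = 3 each, drawn down to 0 at most), with a linear axis from 0 in each panel. All 3HB mice lie above all old mice in the 7 chaperone genes and in Cyp24a1, and among the young mice the third one is far above the others in Hsph1, Chordc1 and Hspa4l.

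The largest difference of the table lay in vitamin D breakdown. Cyp24a1 (ENSMUSG00000038567, chr2:170482708-170497145) encodes the 24-hydroxylase that inactivates vitamin D in the proximal tubule. It was at 5.33, 3.53 and 4.97 in the old mice and at 25, 26.1 and 53.9 in the 3HB mice, a 7.6-fold ratio of means. 3HB mouse 3 stood far above the other 3HB mice. The young mice, at 12.6, 7.72 and 6.02, lay below all 3HB mice. Lrp2, through which filtered vitamin D and its binding protein enter the tubule cell, was at 89.4, 87.9 and 105 in old and at 148, 155 and 143 in 3HB mice (difference 0.66, SE 0.09). These were the only 2 of 26 listed genes for vitamin D and calcium handling in the table. Atp2a2, the calcium pump of the endoplasmic reticulum, stands outside that list and was at 57.3, 58.3 and 71 in old and at 106, 121 and 109.6 in 3HB mice (difference 0.84, SE 0.11). Cyp24a1 overlaps Pfdn4 in the annotation, and no source states whether counting used strand.

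Enzymes that were higher covered glutathione, retinoids, glycans and nucleotides. Gclc, the catalytic subunit of the rate-limiting enzyme of glutathione synthesis, was at 27.5, 33.4 and 36 in old and at 45.6, 61.5 and 53 in 3HB mice (difference 0.71, SE 0.17). Rdh10, which oxidises retinol to retinal, was at 18.9, 16.3 and 17.4 in old and at 26.1, 30.8 and 28.8 in 3HB mice (difference 0.67, SE 0.09). Of 22 listed glycan and glycogen enzymes 3 were in the table, all higher. Mgat3, which adds the bisecting sugar to N-glycans, was at 20.5, 19.7 and 26 in old and at 34, 35.9 and 37.4 in 3HB mice. Mgat5, which branches N-glycans, had a difference of 0.57, and Gbe1, the glycogen branching enzyme, had the smallest difference of all higher genes, 0.40 (SE 0.12). Nt5e, the surface enzyme CD73 that makes adenosine, was at 21.2, 30.1 and 24.1 in old and at 43.5, 53.1 and 42.3 in 3HB mice (difference 0.86, SE 0.17). Tars, the threonyl-tRNA synthetase, had a difference of 0.53 (SE 0.24), which was 0.31 without old mouse 3.

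Secreted and signalling genes were the next group. Plau (ENSMUSG00000021822, chr14:20836660-20843385), the urokinase plasminogen activator that kidney tubules release into urine, was at 177, 202 and 259 in old and at 504, 369 and 429.97 in 3HB mice. Its difference was 1.03 (SE 0.21) and its young mice, at 195, 213 and 183, lay among the old ones. Plau is also on the senescence list, of which 5 of 38 genes were in the table, with Plau and the kinase gene Hipk2 higher and Cdkn2c, Cxcl10 and Rad9b lower. A further 6 genes of this list were in the young against old table only, where 5 were lower and 1 was higher with 3HB. The groups did not overlap in 2 of the 6, beside 11.7% of all 376 genes found only in that table. Hipk2, which acts on p53, had low values of 1.64, 1.71 and 2.07 in old and 3.22, 3.93 and 2.96 in 3HB mice. Dusp4, a phosphatase that switches off MAP kinases, was at 2.56, 1.55 and 2.94 in old and at 5.26, 5.43 and 7.18 in 3HB mice (difference 1.07, SE 0.23). Slc16a14, an orphan member of the monocarboxylate transporter family, was at 8.84, 5.79 and 7.55 in old and at 16.3, 16.8 and 16.9 in 3HB mice (difference 1.09, SE 0.16). The 3HB mice differed by less than 1 from each other in Slc16a14.

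A set of 16 further higher genes belonged to no list and was named after the values were seen, with differences from 0.52 to 1.03 and a median of 0.74, all without overlap. It includes Tars and Atp2a2 above. Guanine nucleotide exchange factors were represented by Arhgef19 (1.03), Fgd3 (0.93) and Dock8 (0.64), and a factor for Rab GTPases by Dennd3 (0.73). Lrrk2, a kinase of the endolysosomal system that is abundant in kidney, was at 45.6, 44.9 and 54.3 in old and at 82.8, 76.8 and 87.3 in 3HB mice (difference 0.76, SE 0.10). Ptpn13, a tyrosine phosphatase, had a difference of 0.85 with an SE of 0.07. The nuclear regulators Ncoa2, a coactivator of steroid receptors, and Spen, a repressor, had differences of 0.62 and 0.61. The remaining genes of the set were Cmip, Ammecr1l, Cemip2, Ajuba, Uhmk1 and Zfyve16.

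Several of the largest differences lay in transcripts that share sequence with other loci. Gm47283, an Erdr1-like gene that the annotation places on the Y chromosome, was at 19.4, 18 and 46.3 in old and at 82.4, 72.3 and 75.3 in 3HB mice. Gm7049, a processed pseudogene of malic enzyme, was at 1.19, 1.6 and 0.80 in old and at 4.5, 3.21 and 5.08 in 3HB mice. AI506816 and Gm43305 are noncoding transcripts whose best protein matches in the deposited annotation are a retroviral envelope and a retroviral Pol fragment. AI506816 was at 21, 23.7 and 23.7 in old and at 32.1, 76.8 and 78.5 in 3HB mice. Gm43305 was at 26.3, 32 and 34.6 in old and at 37, 119.99 and 87.4 in 3HB mice, but at 10.5, 99.6 and 354 in the young mice. The young mice thus spanned a wider range than the distance between old and 3HB mice in Gm43305, and its 3HB mean rests on 3HB mice 2 and 3.

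Immune genes formed the largest functional group on the lower side after the ribosomal genes and their copies. Of 104 genes on 5 immune lists, 17 were in the table, all lower, 12 of them without overlap, with a median difference of -0.90. A further 20 genes of these lists were in the young against old table only, where 18 were lower and 2, both MHC class I genes, were higher in 3HB than in old mice. Of these 20 only 4 did not overlap, beside the 11.7% of all genes found only in that table. Of 14 listed MHC class II genes 4 were in the 3HB table, all without overlap and with a median of -0.92. Cd74 (ENSMUSG00000024610, chr18:60803848-60812652), the invariant chain that guides class II molecules, was at 449, 224 and 481 in old and at 167, 198 and 189 in 3HB mice, a difference of -0.98 (SE 0.36). H2-Ab1, the class II beta chain, was at 179.9, 95.7 and 222 in old and at 85.6, 81.1 and 91.3 in 3HB mice (difference -0.86, SE 0.37). The 3HB mice lay close together below the old mice, and old mouse 2 lay nearest to them. H2-Aa, the alpha chain, was at 206, 98.4 and 169 in old and at 89.4, 80.03 and 81.4 in 3HB mice. H2-DMa, whose product loads peptides onto class II molecules, was at 20.9, 12.9 and 35.4 in old and at 8.61, 9.8 and 10.3 in 3HB mice (difference -1.08, SE 0.41). In bulk tissue, fewer cells of a type and less RNA per cell cannot be told apart.

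Genes for the peptide supply of class I molecules were lower too. Of 28 listed class I genes 2 were in the table, H2-Q4 (-0.52) and H2-Q10 (-0.998), and both have near-identical relatives that can share reads. Psmb8, a catalytic subunit of the immunoproteasome, was at 30.6, 16.1 and 34 in old and at 13, 14.3 and 12.6 in 3HB mice (difference -0.90, SE 0.33). Psmb10, another catalytic subunit, was at 25.2, 19.6 and 24.9 in old and at 17.4, 16 and 13.5 in 3HB mice (difference -0.54, SE 0.15). Tapbp, tapasin, which bridges class I molecules to the peptide transporter, was at 46.4, 35.6 and 45.4 in old and at 29.7, 35.5 and 27.4 in 3HB mice, so that old mouse 2 and 3HB mouse 2 nearly touched. These 3 of 10 listed genes did not overlap between the groups and had a median of -0.54.

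Genes induced by interferon-gamma were lower on average, but old mouse 2 lay near the 3HB mice in most of them. Of 31 listed genes 6 were in the table, with a median difference of -0.95, and 2 of the 6 did not overlap. Without old mouse 2 the median was -1.31, and that of the MHC class II genes was -1.27. Leaving out another mouse brought them as near to 0 as -0.71 and -0.74. Tgtp2, a GTPase of the IRG family that attacks the vacuoles of parasites, was at 6.36, 2.52 and 5.03 in old and at 2.2, 1.81 and 1.32 in 3HB mice (difference -0.97, SE 0.35) and did not overlap. Gbp8, a guanylate-binding protein, was at 2.37, 3.55 and 4.07 in old and at 1.85, 1.57 and 1.78 in 3HB mice and did not overlap either. Overlap was seen in the remaining members. Igtp (Irgm3) was at 16.5, 4.38 and 25.1 in old and at 7.11, 4.73 and 5.05 in 3HB mice, so that old mouse 2 was below all 3HB mice. Its difference of -1.04 became -1.70 without old mouse 2 and -0.57 without old mouse 3. Ubd, the ubiquitin-like modifier FAT10, was at 12.3, 2.02 and 15.6 in old and at 1.29, 1.71 and 2.31 in 3HB mice (difference -1.68, SE 0.79). Gbp2 was at 7.68, 2.09 and 5.38 in old and at 2.37, 1.66 and 1.79 in 3HB mice, and Cxcl10, a chemokine for T cells, had a difference of -0.77 (SE 0.39). Gm43302, a guanylate-binding protein gene outside the list, was at 4.26, 0.83 and 6.53 in old and at 1.16, 0.97 and 0.72 in 3HB mice. The difference of Gm43302 (-1.10) became -1.70 without old mouse 2 and -0.68 without old mouse 3, and that of Gbp2 (-0.92) became -0.60 without old mouse 1. Of 26 genes listed as induced mainly by type I interferon, 0 were in the table. Igtp, Gbp8 and Gm43302 overlap other genes of their families in the annotation, and Tgtp2 has the near-identical copy Tgtp1.

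Promoters of these genes carried interferon elements, which are shown because Igtp and Tgtp2 hold them in one arrangement. The gamma-activated site was searched as TTCNNNGAA and the element of interferon regulatory factors as 2 copies of GAAA with 2 bases between them, on both strands, and 8.30% and 3.44% of all promoters held them. Of the 12 immune genes with a promoter, 3 held the first (Igtp, Psmb8 and Tgtp2) and 4 the second (Cxcl10, Gbp2, Igtp and Tgtp2). Among the other genes of the table the second was also held by the ribosomal genes Rps19 and Rps23 and by the higher gene Uhmk1, and the first by none with a promoter. In Igtp and Tgtp2 the second element started 11 bases after the first. This spacing was found in 5 of 32851 promoters, those of Gm12185, Igtp, Irgm2, Tgtp1 and Tgtp2, which are related genes, and it was searched after it had been seen. Capitals mark both elements in the 100 bases before the start of Igtp (chr11:58199456-58199555, plus strand) and Tgtp2 (chr11:49064213-49064312, minus strand), and the second element alone in those of Gbp2 (chr3:142620563-142620662, plus strand).
Igtp: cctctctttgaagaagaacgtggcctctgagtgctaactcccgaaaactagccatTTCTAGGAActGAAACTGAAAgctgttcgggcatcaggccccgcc
Tgtp2: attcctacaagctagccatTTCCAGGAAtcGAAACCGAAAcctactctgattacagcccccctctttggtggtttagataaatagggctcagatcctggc
Gbp2: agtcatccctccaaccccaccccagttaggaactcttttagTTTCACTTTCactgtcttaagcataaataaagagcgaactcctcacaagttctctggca
No match to either element was found in the window of H2-Aa, and the inverted CCAAT box, known as the Y box of class II promoters, is shown in capitals (chr17:34287824-34287923, minus strand).
H2-Aa: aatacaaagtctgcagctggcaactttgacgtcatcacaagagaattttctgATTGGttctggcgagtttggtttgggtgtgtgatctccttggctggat

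Complement genes closed the immune group, with 2 of 21 listed genes in the table. C4b, which encodes complement component 4, was at 52.3, 20.5 and 29.9 in old and at 12.3, 10.9 and 19.3 in 3HB mice (difference -1.15, SE 0.45). C2, which forms the convertase with C4, was at 42.7, 33.1 and 47.1 in old and at 23.7, 36 and 22.9 in 3HB mice and overlapped through old mouse 2 and 3HB mouse 2. Old mouse 2 was the lowest of the old mice in 15 of the 17 immune genes, and over these genes it had a median of -0.61 from the old mean, whereas old mice 1 and 3 had 0.25 and 0.21 and the 3HB mice had -0.75, -0.91 and -0.94. The SD of log2 values was smaller in the 3HB mice than in the old mice in 14 of the 17.

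Among immune cell markers, those of macrophages, dendritic cells, T cells and NK cells were scarce in the tables. Most of those of B and plasma cells were in the table for age. Of 13 markers of macrophages and dendritic cells, 0 were in the 3HB table, and Lyz2 and Ms4a7 were in the table for age, with a summed level of 23.8 to 74.5 in old and 35.5 to 44.3 in 3HB mice. Of 14 B and plasma cell markers, 9 were in the table for age, with sums of 1191 to 4402 in old and 3350.2 to 4707 in 3HB mice. Of 11 markers of T and NK cells only Cd8a was in a table, at sums of 0.33 to 0.80 in old and 0.47 to 0.94 in 3HB mice. None of these listed values was 0 in an old or a 3HB mouse, and the ranges of both groups overlapped in all 3 lists. The part of cell numbers in the lower immune genes was not tested.

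By position, 11 of the lower genes lay in one stretch of 3.28 Mb on chromosome 17 (chr17:33915899-37196095, GRCm38), which was defined after the genes had been seen and holds the mouse MHC. They were Tapbp, Rps18, H2-DMa, Psmb8, H2-Ab1, H2-Aa, C4b, C2, H2-Q4, H2-Q10 and Ubd. The stretch holds 164 protein-coding genes in GENCODE, and 0 higher genes of the table lay in it. Of the 11 genes in the stretch that were listed for age only, 8 were lower and 3 were not lower in 3HB than in old mice.

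**Figure D3:**
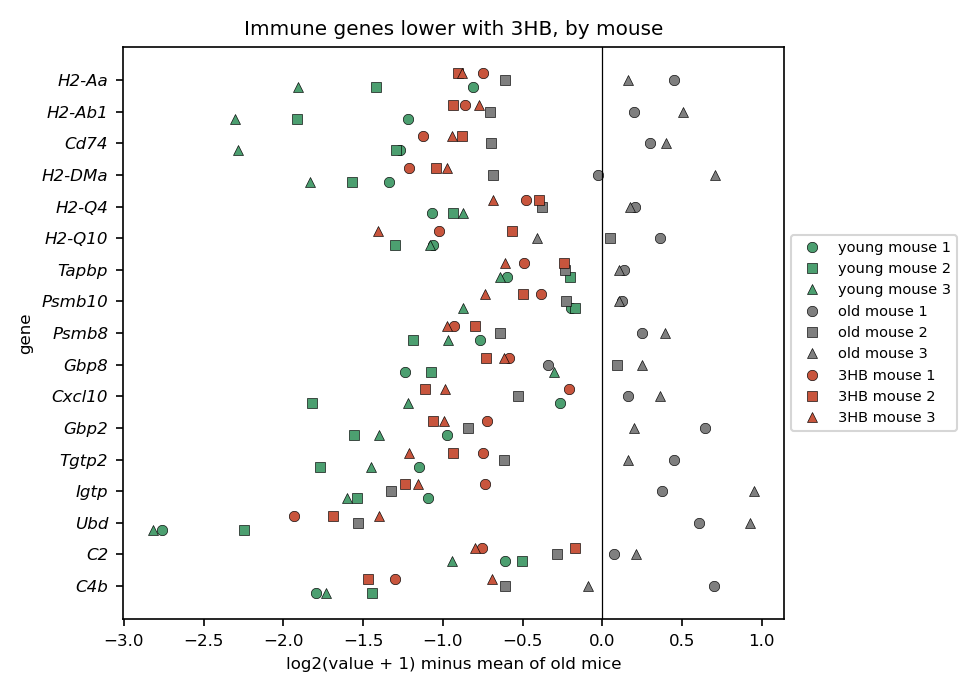
Each point is log2(value + 1) of 1 mouse minus the mean of the 3 old mice for the 17 immune genes in the table, with colour for the group and shape for the mouse. The 3HB mice lie left of 0 in all 17 genes, old mouse 2 (grey square) lies between the other old mice and the 3HB mice or among the latter in most genes, and a young mouse lies furthest left in most.

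The ribosomal protein genes in the table were lower by small amounts with 3HB. Of 83 listed genes 14 were in the table, all lower, 13 of them without overlap, with differences from -1.41 to -0.22 and a median of -0.41. The smallest difference, that of Rps19, was -0.10 without old mouse 3. From the small subunit came 9 of 34 (median -0.41), and from the large subunit 5 of 49 (median -0.42). Rps12 was at 691, 746 and 812 in old and at 527, 599 and 569.7 in 3HB mice (difference -0.41, SE 0.09). Rpl39 was at 343, 369.9 and 366 in old and at 246, 281 and 282 in 3HB mice (difference -0.42, SE 0.07). Rplp1, the acidic stalk protein with the highest level of the 14, was at 2129, 2245 and 2612 in old and at 1843, 1972 and 1924 in 3HB mice, a ratio of means of 1.22 for old over 3HB. The groups were apart in these 3 genes, although each difference was well below 1 on the log2 scale. Rps24 was the 1 gene that overlapped, at 939, 1029 and 1172 in old and at 801, 1014 and 828 in 3HB mice. Rps27rt, a retrogene of Rps27, had the largest difference of the group, from 144, 174 and 279 in old to 89.9, 90.8 and 44.8 in 3HB mice. The remaining listed genes included Rps13, Rps18 and Rpl30.

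A further 6 genes are pseudogenes or copies of ribosomal protein genes, put together after their values were seen. These were Rps18-ps3, Rps18-ps5, Rps6-ps4, Rpl15-ps3, Gm10240 and Gm10275, all lower without overlap, with a median of -0.53 and a range from -0.73 to -0.32. Rps6-ps4 was at 197, 195 and 184 in old and at 127, 143 and 134 in 3HB mice (difference -0.51, SE 0.06). Reads from a functional gene can be assigned to such copies, so the single values are uncertain. The smallest difference, that of Gm10275, was -0.18 without old mouse 3. In 12 of the 14 listed ribosomal genes old mouse 1 was the lowest old mouse. Tpt1, a short abundant mRNA that is regulated at translation like those of ribosomal proteins, was at 2789.7, 2578 and 2905 in old and at 1955, 2315 and 2127 in 3HB mice (difference -0.37, SE 0.09).

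**Figure D4:**
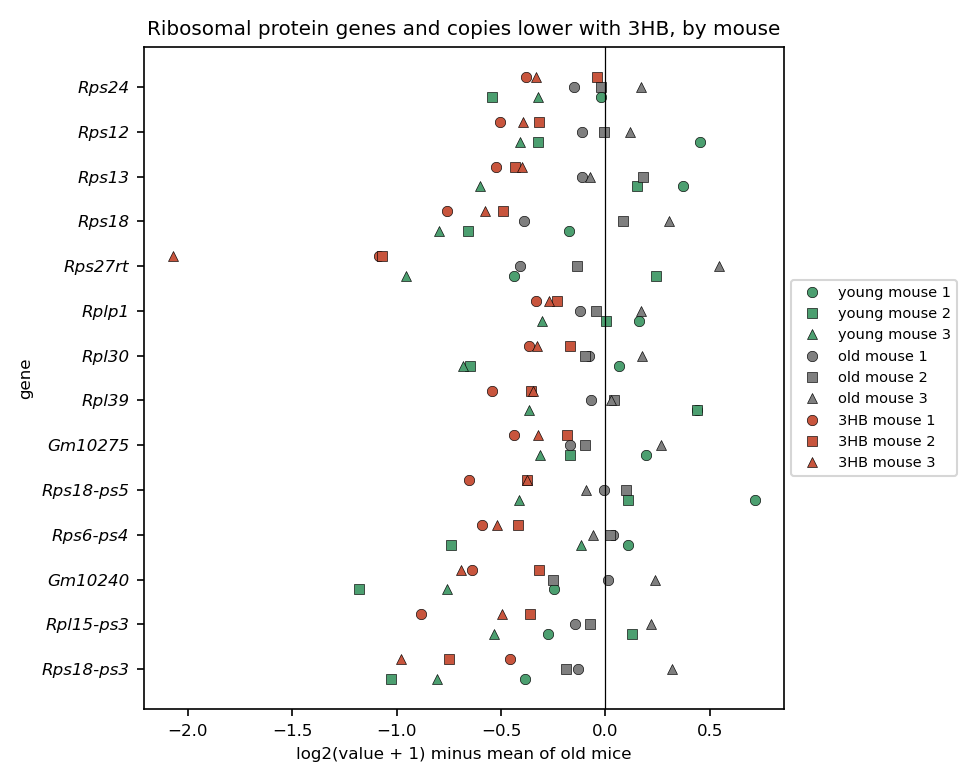
Points show log2(value + 1) of single mice minus the mean of the old mice for 8 of the listed ribosomal protein genes and the 6 copies, with colour for the group and shape for the mouse. All points of 3HB mice lie left of 0, young mouse 1 (green circle) lies right of young mouse 3 (green triangle) in the 8 ribosomal protein genes plotted, and Rps27rt reaches the lowest value.

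Mitochondrial genes were few, with 2 of 24 listed genes in the table. mt-Nd3, a complex I subunit encoded in mitochondrial DNA, was at 8034, 8825 and 9134 in old and at 6163, 6005 and 6617 in 3HB mice (difference -0.47, SE 0.07). Pam16, part of the motor that imports proteins into the matrix, was at 26.8, 27.1 and 19.9 in old and at 15, 13.5 and 14.7 in 3HB mice (difference -0.72, SE 0.15). Gm10221, a pseudogene matched to subunit g of ATP synthase, and Tmem256, a small protein of the inner membrane, both had a difference of -0.42. Gm10925, a nuclear copy of the mitochondrial ATP synthase subunit 6 gene with the highest values of the table, overlapped between the groups, at 15716, 12961 and 15836 in old and 12407, 13307 and 10590.0 in 3HB mice.

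Other lower genes came from several pathways. Ugt1a1, the enzyme that conjugates bilirubin, was at 8.26, 8.81 and 5.83 in old and at 1.06, 4.98 and 2.36 in 3HB mice (difference -1.30, SE 0.47), and it shares exons with the other Ugt1a genes. Rbm3, an RNA-binding protein induced by cold, was at 133, 164 and 246 in old and at 104, 115 and 91.9 in 3HB mice (difference -0.76, SE 0.28), with old mouse 3 well above the other old mice. Of 20 listed cell cycle genes 2 were in the table. Gmnn, the replication licensing inhibitor geminin, was at 9.85, 15.4 and 19.4 in old and at 7.93, 9.43 and 7.32 in 3HB mice, and Rad9b, a checkpoint protein, had a difference of -0.55. Cdkn2c, the CDK4 and CDK6 inhibitor p18, was at 19.2, 15.2 and 29 in old and at 11.8, 14.4 and 9.56 in 3HB mice (difference -0.75, SE 0.30). Azin2, an antizyme inhibitor of polyamine control, was at 5.88, 6.33 and 6.86 in old and at 3.31, 4.33 and 3.82 in 3HB mice. Car14, a membrane carbonic anhydrase of the tubule, overlapped, at 89.6, 136 and 221 in old and 59.6, 109 and 72.9 in 3HB mice.

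Among the leading lower genes without a pathway, Gm8325 had the largest difference. This processed pseudogene, which the deposited annotation matches to the ubiquitin-conjugating enzyme variant Ube2v1, was at 25.1, 41.3 and 23.3 in old and at 11, 3.7 and 6.17 in 3HB mice (difference -2.02, SE 0.47). Plcl2, an inactive phospholipase C, was at 2.27, 1.51 and 2.12 in old and at 0.40, 0.41 and 0.48 in 3HB mice, and the long noncoding RNA Gm32461 was at 64.4, 50.2 and 37.2 and at 25.2, 24.9 and 25.2. The 3HB mice lay close together in both. Another 20 lower genes, named after their values were seen, had a median of -0.48 (range -0.92 to -0.29), and 16 of them did not overlap. They include Tpt1, Gm10925, Gm10221 and Tmem256 above. Fbxo6, which recognises glycoproteins for degradation, was at 33.7, 30.4 and 38.1 in old and at 19.9, 22.1 and 19.3 in 3HB mice (difference -0.71, SE 0.11). Bok, a BCL2 family member, had a difference of -0.47 (SE 0.06). Mdk, the growth factor midkine, was at 504, 264 and 528 in old and at 241, 296 and 273 in 3HB mice and overlapped through old mouse 2. Rnaset2b, a ribonuclease with the near-identical copy Rnaset2a, had a difference of -0.92. The others were Asb9, Bex3, Dynlt1b, Fam221b, Ftl1-ps1, Hnrnpd, Isoc2a, Kbtbd11, Lsm7, Plp2, Siva1 and Sorbs3.

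Groups overlapped in 12 genes of the table, all lower. These were Rps24, Gm10925, Siva1, C2, Kbtbd11, Mdk, Cxcl10, Car14, Gbp2, Igtp, Gm43302 and Ubd, with differences from -0.25 to -1.68. Ubd and Igtp thus had some of the largest mean differences together with overlapping mice and the largest SE, 0.79 and 0.70. Like Igtp above, Ubd moved with single old mice, to -2.44 without old mouse 2 and to -1.21 without old mouse 3. Without old mouse 3 the difference of Car14 was -0.49 and that of Rps24 -0.17, and without old mouse 2 that of Mdk was -0.94. Without 3HB mouse 3 the difference of Siva1 was -0.25 and that of Kbtbd11 -0.93.

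The young mice, which are not part of the contrast, differed among themselves along the same genes. Young mouse 3 was the highest of the 3 young mice in 40 of the 43 higher genes, against 2 for young mouse 1 and 1 for young mouse 2. It lay above every old mouse in 38 of the 43, whereas young mice 1 and 2 lay below every old mouse in 32 and 29. In the 7 chaperone genes it was the highest young mouse each time. Hsph1 was at 27.2, 30.3 and 111 in young mice 1, 2 and 3, and Chordc1 was at 3.75, 2.68 and 27.5. The third value lay within the range of the 3HB mice in Hsph1 and above it in Chordc1, and the others lay below every old mouse. Hsp90aa1 was at 87.1, 31.8 and 159.6 and Lrrk2 at 20.7, 28.8 and 69.6, with the same order of the third mouse above the other two. Cyp24a1, Plau and Dennd3 were the 3 higher genes without this order, and young mouse 3 was the lowest young mouse in each.

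In the 70 lower genes the order was turned round. Young mouse 3 was the lowest young mouse in 44 of the 70 and lay below every old mouse in 63, and young mouse 1 was the highest young mouse in 43. For the 14 ribosomal genes, young mouse 3 was the lowest in 10 and the highest in 0, and young mouse 1 was the highest in 11. Rpl39 was at 487, 487 and 279 and Rps13 at 516, 443 and 263 in young mice 1, 2 and 3. Over the ribosomal genes the medians from the old mean were 0.18, -0.19 and -0.41 in the young mice, and -0.50, -0.25 and -0.41 in the 3HB mice. Over all higher genes the medians were -0.50, -0.47 and 0.59 in the young mice and 0.78, 0.86 and 0.80 in the 3HB mice. In the immune genes, by contrast, all young mice were low, with medians of -1.07, -1.42 and -1.40.

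The order of the young mice was also counted among the genes listed for age only. Restricted to genes of at least 5 in every young mouse, young mouse 3 was the highest in 44 of 105 such genes (41.9%) and the lowest in 30 (28.6%). The order was uneven within these as well. Among the 39 higher in old than in young mice, young mouse 3 was the highest in 23 (59.0%) and young mouse 2 the lowest in 26 (66.7%), whereas among the 66 lower in old mice young mouse 3 was the highest in 21 (31.8%). With the same limit it was the highest in 24 of 27 higher genes (88.9%) and the lowest in 37 of 56 lower genes (66.1%) of the 3HB table. After the mice were centred on genes listed for age only, it was the highest in 36 of 43 higher genes and the lowest in 56 of 70 lower genes. This centring turned the order of the other two in the lower genes, with young mouse 2 the highest in 38 and young mouse 1 in 29. The 2 sets share the young libraries, and genes of a set are not independent of each other, so these shares are descriptions. Young mouse 3 received no 3HB according to its label, and what set it apart from young mice 1 and 2 was not tested.

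**Figure D5:**
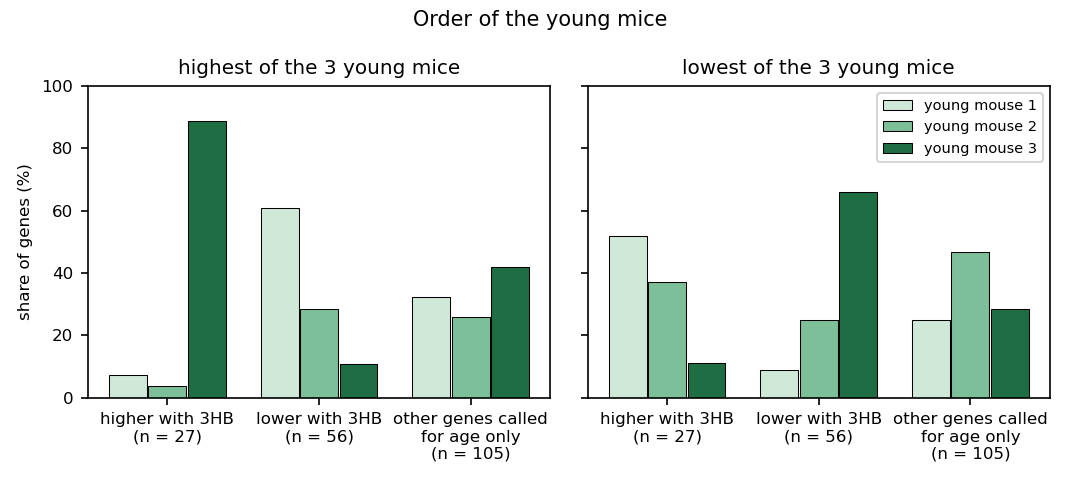
Bars give the share of genes in which each young mouse was the highest (left) or the lowest (right) of the 3 young mice, for genes of at least 5 in every young mouse. Young mouse 3 is the highest in 88.9% of the genes higher with 3HB and the lowest in 66.1% of those lower with 3HB, against 41.9% and 28.6% of the other genes called for age only.

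Transcript length moved with this order. Across the 113 genes the Spearman correlation of the longest annotated transcript with the log2 difference was 0.58 for young mouse 3 minus young mouse 1, 0.52 for young mouse 3 minus young mouse 2, 0.24 for young mouse 2 minus young mouse 1 and 0.40 for 3HB minus old. Across 103 genes listed for age only (at least 5 in every young mouse, with an annotated length) the values were 0.35, 0.15, 0.12 and 0.23. Across 153 age-only genes chosen by a mean of at least 1 in every group, without immunoglobulin genes, they were 0.22, 0.13, 0.035 and 0.15. The points of each correlation share their libraries. RNA integrity of single libraries was not analysed here, and the part of transcript length in the differences was not tested.

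The 13 genes that were also listed for young against old were all immune genes apart from Gmnn. The old mice are common to both comparisons, whose values are therefore set side by side without a test. For Cd74 the difference was -0.98 for 3HB minus old and -1.62 for young minus old, for C4b -1.15 and -1.66, and for Ubd -1.68 and -2.61. For H2-Ab1 they were -0.86 and -1.81, for H2-DMa -1.08 and -1.58, and for Gmnn -0.74 and -1.74. The young mice of Cd74 were at 151, 148 and 73.9 and those of C4b at 8.47, 11.1 and 8.86, against 3HB mice at 12.3, 10.9 and 19.3 in C4b. The other genes in both tables were H2-Q4, H2-Q10, Gbp2, Tgtp2, Igtp, Cxcl10 and Gm43302.

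Several lists had no gene in the table. This held for the 19 listed genes of 3HB metabolism, transport and receptors, for 34 genes of lipid metabolism, for 24 glucose and amino acid transporters, for 19 markers of tubular injury and for 37 immediate early and clock genes. Of 31 genes of the extracellular matrix only Plau was listed, and of 37 genes of glutathione and conjugation only Gclc and Ugt1a1. Some members of these lists had values through the young against old table alone. Over all 376 genes of that kind, old and 3HB mice did not overlap in 11.7%. Of 6 such tubular injury genes 3HB mice were on average above old mice in 3 and below them in 3, and 2 of the 6 did not overlap. Of 3 such genes of lipid metabolism 1 did not overlap, and the 1 transporter did overlap. The groups also overlapped in all such genes of the retinoid (5), glutathione and conjugation (2), mitochondrial respiratory (2), vitamin D and calcium (1) and glycan and glycogen (1) lists. Genes in neither table were not analysed here.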

How the data were processed

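Kidney RNA of 9 mice (3 per group) was read by paired-end sequencing (150 bp per end). The authors deposited 2 tables of normalized signal values per gene and mouse, 1 per comparison, each holding called genes only together with annotation. The submitters' processing notes name CASAVA, HISAT2, StringTie and the build GRCm38. The unit (TPM or FPKM), strand setting, calling test and threshold are not given in the sources used here. Depth is unknown, so no interval from counting error was computed, and the precision rests on the number of mice.

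Groups came from the sample titles. Differences are those of group means of log2(value + 1), a pseudocount of 1, with the SE from both SDs. No fit across genes was possible, since only called genes are listed, and the planned description took the place of a test. The members and 25 gene lists (675 genes) were chosen with earlier results of these data known. Named genes are list members in the table, the 10 largest differences per direction among genes whose groups did not overlap and whose higher group averaged 1 or more, and genes in both tables; others were named after their values were seen. Positions, biotypes and transcript lengths came from GENCODE mouse release 21 (GRCm38), and promoters from RefSeq (GRCm38.p6). The differences, standard errors and overlap counts were checked on simulated data with known answers. Alternatives covered the pseudocount (0.1), the ratio of means, the median of mice, a minimum mean of 1, centring on genes listed for age only, and leaving out each mouse. Scripts ran under Python 3.11.15, with scipy 1.17.1, pandas 2.3.3, numpy 2.4.6 and, for plots, matplotlib 3.10.9.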

Additional observations from a re-analysis of the deposited data

How the results depend on the processing

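No paired analysis was possible because no test was run on the called genes, and no label says that the replicate numbers pair the mice. The counts of 43 higher and 70 lower genes were the same under the pseudocount of 0.1, the ratio of means, the median of mice, the minimum mean, the centring and without each mouse. The number of genes without overlap was 92 after centring. It ran from 101 to 109 when a mouse was left out, which can only keep or raise it and so says nothing of its stability. The median absolute difference ran from 0.64 to 0.70 without a mouse and reached 0.75 with the ratio of means. No list median and none of the 113 genes changed direction under these alternatives. Of the 113 genes, 9 moved by more than their spread with the pseudocount of 0.1 and 13 with the ratio of means, all to larger differences, such as Plcl2 from -1.04 to -1.95 and -2.19 and H2-Q10 to -1.49 under both. Leaving out 1 mouse gave Ubd the widest range among the 113 genes, from -2.44 to -1.21, and Igtp ranged from -1.70 to -0.57. Other genes that moved by more than 1.5 times are given with the mouse beside their values. The young order with a minimum value, the centred young order, the second heat shock arrangement and both spacings of promoter elements were added after the data had been seen. Without total reads, the counting error of low genes such as Hipk2, Plcl2 and H2-Q10 could not be given.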
